A study of Homo sapiens with 12 samples.

Results

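Phosphatidylcholine is the most abundant phospholipid of most mammalian membranes, and it also coats lipid droplets and lipoproteins. Cells make it from choline through the CDP-choline (Kennedy) pathway, or by methylation of phosphatidylethanolamine, and they then exchange its fatty acid tails in the Lands cycle. PPARγ is a nuclear receptor that binds DNA together with RXR and controls fat storage, which needs phospholipid for the droplet surface.

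The 9 genes described here act in these routes and were chosen by name: PEMT, CHKA, CHKB, PCYT1A, PCYT2, CEPT1, CHPT1, LPCAT1 and LPCAT3, of 19974 protein-coding genes on chromosomes 1 to 22 and X. PCYT2 is not an enzyme of phosphatidylcholine itself: it activates ethanolamine for the lipid that PEMT methylates. A peak was assigned to a gene when its summit lay within 50 kb of the gene span in the hg38 build. A peak of a pooled list is called recurrent when a peak in each of the 2 libraries of its group overlapped it by at least 1 bp. The genes were proposed with peaks of these lists in view, so peak counts and folds are given as a description, without a test.

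PPARγ was mapped by ChIP-seq in MCF10A-NeuT, a line of human breast epithelial cells that carries the NeuT oncogene. The KQ cells stably expressed retroviral PPARγ K154/155Q, in which both of these lysines are replaced by glutamine (labelled PPARg-KQ), and the WT cells expressed wild-type PPARγ. The labels call the mutant deficient in acetylation; glutamine is also widely used to mimic acetylated lysine. Both carried NeuT, a retroviral vector that also encodes GFP, and the cells' own PPARG gene, and both grew in DMEM with 10% fetal bovine serum. Each group had 2 ChIP libraries, and the labels do not say whether these came from separate cultures. The antibody is given as anti-PPARγ in one part of the labels and as anti-Flag in another, which calls both receptors Flag-tagged. An antibody to PPARγ would also pull down receptor from the cells' own gene, and the mutant and the cells' own receptor cannot be told apart here. The vector ChIP and the input libraries were not analysed here.

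The KQ libraries held 1263 and 1035 peaks, against 18143 and 17859 in the WT libraries, and the pooled lists held 2846 KQ and 25164 WT peaks. Read totals are not in these lists, but the tags at each summit could be recovered from the deposited fold and p-value. The median number of tags that the caller expected at a summit by background was 2.01 and 1.77 in the KQ libraries and 1.41 and 0.448 in the WT libraries, so WT library 2 had the thinnest background. With 2 libraries against 2, a two-sided exact permutation test cannot go below p = 0.33, and differences between libraries of a group may be technical only.

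The 9 windows held 3 pooled KQ peaks, against 29 pooled WT peaks. These are 0.105% of the pooled KQ list and 0.115% of the pooled WT list, so relative to the length of its list each group had about the same share. Of these, 1 KQ peak and 9 WT peaks were recurrent. A recurrent KQ peak lay near 1 of the 9 genes, CHKB, where 2.68% of all protein-coding genes had one. A recurrent WT peak lay near 7 of the 9 (PEMT, CHKA, CHKB, CEPT1, CHPT1, LPCAT1 and LPCAT3), where 37.7% of all protein-coding genes had one. Counting every pooled peak, KQ had a peak near 3 genes (PEMT, CHKB and LPCAT3; 16.4% of all genes) and WT near 8 (67.1% of all genes). The exception was PCYT1A. Within 5 kb of the gene spans, 0 genes had a recurrent KQ peak (1.09% of all genes), and 3 (PEMT, CHPT1 and LPCAT3) had a recurrent WT peak (17.5% of all genes). Any pooled peak within 5 kb was present at 2 genes in KQ (PEMT and LPCAT3; 7.20% of all genes) and at 4 in WT (these, CHPT1 and CHKB; 37.1% of all genes). When a peak within 50 kb counted only for its nearest gene, a recurrent peak was left at 0 genes in KQ (1.27% of all genes) and at 3 in WT (PEMT, CHPT1 and LPCAT3; 20.4% of all genes).

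**Figure D1:**
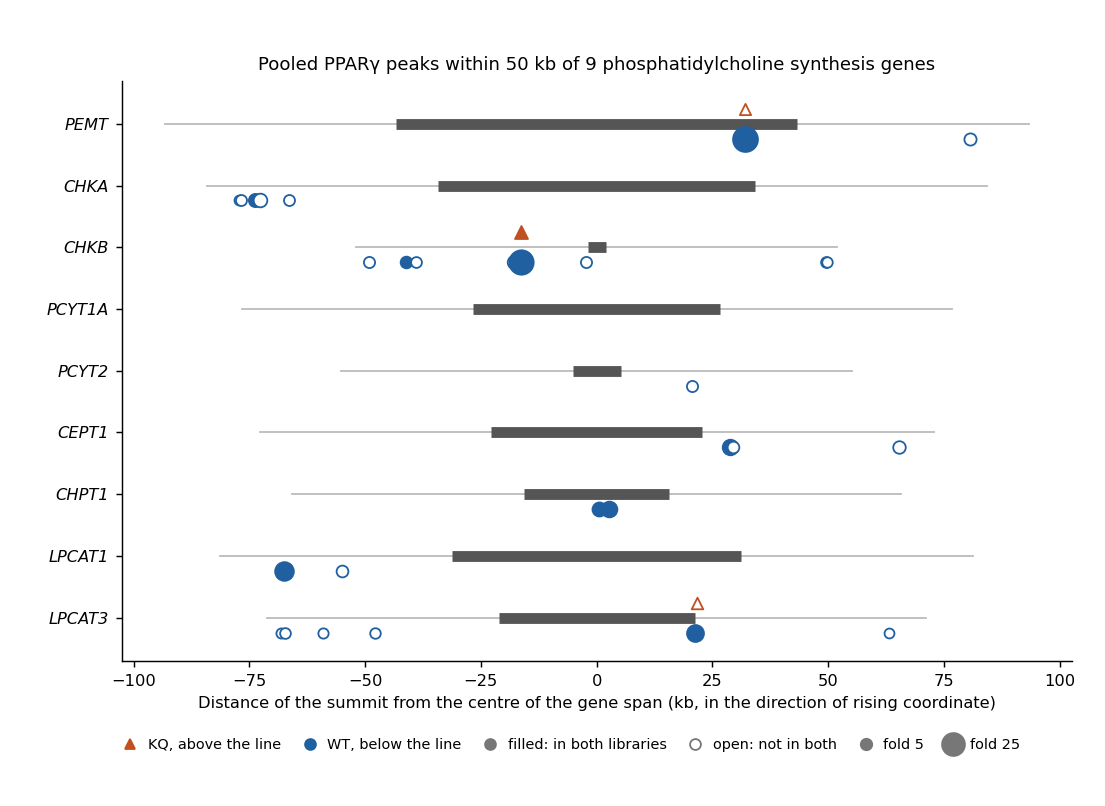
Position of each pooled peak around the 9 genes, drawn from the centre of each gene span (thick bar) in kb, with the 50 kb flanks as a thin line. KQ peaks are triangles above the line and WT peaks are circles below it; size grows with fold within a list, filled symbols are recurrent, and the 3 KQ peaks each sit over a WT peak.

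By library, the windows held 3 peaks in KQ library 1 and 1 in KQ library 2, against 16 in WT library 1 and 20 in WT library 2. Genes with a peak numbered 3 and 1 in the KQ libraries (8.35% and 6.99% of all genes) and 8 and 9 in the WT libraries (58.9% and 60.7%). The groups did not overlap in these counts. Relative to the length of each list they did: the windows held 0.238% and 0.0966% of the KQ library lists, and 0.0882% and 0.112% of the WT library lists. Peaks were present in both WT libraries and in neither KQ library near 5 genes (CHKA, PCYT2, CEPT1, CHPT1 and LPCAT1), a pattern that 37.3% of all protein-coding genes showed. Per Mb, the windows of the 9 genes held 2.30 KQ peaks and 22.2 WT peaks. All protein-coding windows together held 1.13 KQ peaks and 10.3 WT peaks per Mb.

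**Figure D2:**
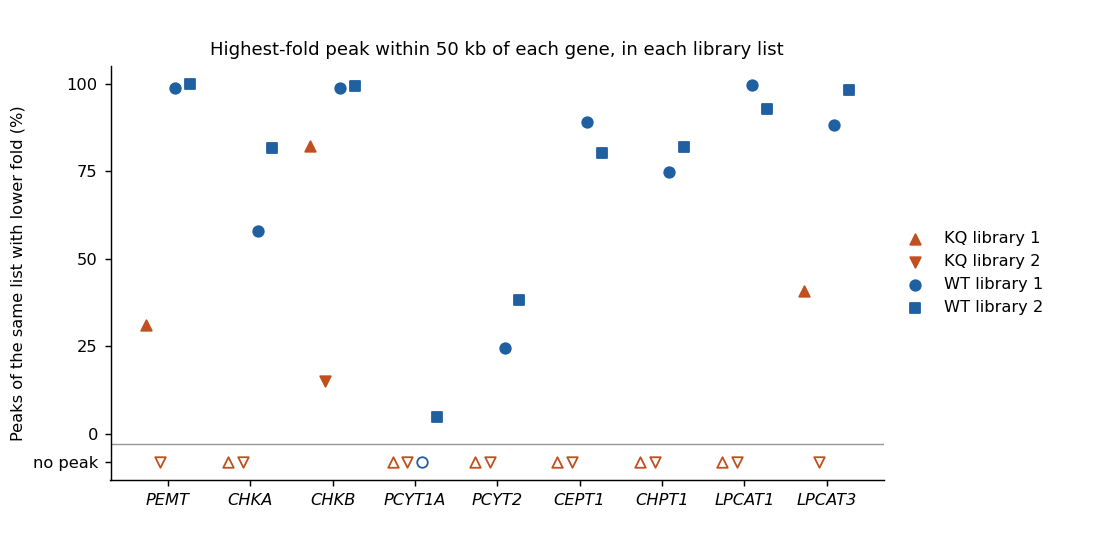
For each gene and library, the share of that library's peaks (in %) with a lower fold than the highest-fold peak within 50 kb; open symbols below the line mark libraries with no peak there. KQ library 1 has peaks at 3 genes, between 31.0% and 82.3%, and KQ library 2 at CHKB alone, at 15.0%. PEMT and CHKB lie at 98.9% or more in both WT libraries.

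The sites differed widely in strength. The authors' fold enrichment over the caller's background ran from 4.79 to 6.93 among the 3 KQ peaks and from 3.33 to 30.0 among the 29 WT peaks. The median was 5.22 for KQ, where the whole pooled list had 4.82, and 5.31 for WT, where the whole list had 6.14. Among recurrent WT peaks it was 11 near these genes and 9.03 overall. Folds of different lists are on different backgrounds and are given side by side only.

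PEMT had the highest fold of the set in the pooled WT list (30.0) and in WT library 2 (21.4). In WT library 1 its fold of 17.5 stood below those at LPCAT1 (23.3) and CHKB (18.2). In the pooled KQ list its fold was the lowest among the peaks of the set. PEMT methylates phosphatidylethanolamine to phosphatidylcholine, a route best known in liver. Its WT peak (chr17:17580652-17581147, hg38) lay inside the gene and ranked 7th by fold among the 25164 pooled WT peaks, with 101 tags at the summit (95% interval 82.3 to 123) where 2.40 were expected. The KQ peak at the same place (chr17:17580867-17581063) had 34 tags (23.5 to 47.5) where 6.30 were expected, and its fold of 4.79 exceeded 49.1% of the KQ list. These are exact Poisson intervals, which cover counting error only. In KQ library 1 the site had 21 tags with 3.27 expected and ranked 872nd of 1263, and KQ library 2 had no peak there. In WT library 1 it had 78 tags with 3.50 expected and ranked 208th, and in WT library 2 it had 32 tags with 0.545 expected and ranked 24th. The site was thus among the strongest of both WT library lists. Of the KQ libraries only library 1 called it, with a fold of 5.15, above 31.0% of a list whose median was 5.84.

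The PEMT summits of KQ and WT lay 13 bp apart, and 1475 bp separated the WT summit from the nearest start site of PEMT in the RefSeq table, on the downstream side. None of the 3 PEMT start-site windows in that table held a summit. A second WT peak, 37.4 kb outside the gene, had 8 tags with 0.524 expected and was found in WT library 2 alone.

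The choline kinases CHKA and CHKB catalyse the first step of the Kennedy pathway, the phosphorylation of choline. CHKB was the gene whose KQ site recurred. The KQ peak (chr22:50564383-50564608) had 44 tags with 5.49 expected and ranked 302nd of 2846. The WT peak there (chr22:50564396-50564737) had 73 tags with 1.58 expected and ranked 12th of 25164, with a fold of 28.7. KQ libraries 1 and 2 had 22 and 25 tags, with 2.11 and 4.61 expected, and WT libraries 1 and 2 had 49 and 27 tags, with 1.75 and 0.602 expected. All 4 libraries therefore called the site, and their tag counts are not on a common scale. By fold the site ranked 222nd of 1263 peaks in KQ library 1, above 82.3% of that list. In KQ library 2 it ranked 880th of 1035, above 15.0% of the list. WT libraries 1 and 2 ranked it 174th and 90th.

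This site lies 14.4 kb from CHKB, on the other side of CPT1B, which encodes the muscle-type carnitine palmitoyltransferase. Its nearest protein-coding gene is SYCE3, a meiotic chromosome protein gene 1.61 kb away. The window of CHKB is gene-dense, with 7 other protein-coding genes, and it held 8 WT peaks. Of the other 7, 1 recurred, a weaker peak 39.2 kb from CHKB and nearest to KLHDC7B (38 tags, 6.32 expected). The closest WT peak lay 0.267 kb beyond the end of CHKB, in the gap to CPT1B, with 11 tags where 1.58 were expected, and neither WT library called it. The rest were nearest to CIMAP1B, KLHDC7B, SYCE3 and ARSA.

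CHKA had no KQ peak in any list. Its 5 WT peaks all lay between 32.2 and 43.1 kb from the gene and inside ALDH3B1, an aldehyde dehydrogenase gene. The recurrent one (chr11:68013281-68013467) had 18 tags with 1.64 expected, and 11 and 7 tags in WT libraries 1 and 2. A neighbouring peak with a higher fold of 7.82 and 26 tags was present in WT library 1 alone. None of the CHKA peaks lay inside or next to CHKA itself.

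PCYT1A and PCYT2 encode the enzymes that join phosphocholine and phosphoethanolamine to CTP, which gives CDP-choline and CDP-ethanolamine. PCYT1A, the rate-limiting enzyme of the Kennedy pathway, had no pooled peak of either group within 50 kb. WT library 2 alone had a peak there, 41.0 kb away, with 4 tags where 0.224 were expected. The window edge decides this entry: a recurrent WT peak with a fold of 8.12 and 36 tags lay 52.3 kb from PCYT1A, and an unshared one lay at 50.8 kb. Just inside the limit, the farthest summits lay 47.5 and 47.8 kb from CHKB, with folds of 4.29 and 3.95. At PCYT2 there was no KQ peak and 1 pooled WT peak, inside MAFG, a small MAF transcription factor gene 15.3 kb away, with 13 tags and 1.98 expected. It was found in WT library 2 and not in WT library 1. The peak of WT library 1 in this window was another one, 1.49 kb upstream of PCYT2 with 10 tags and 1.17 expected, and it overlapped no pooled peak.

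CEPT1 and CHPT1 carry out the last step of the Kennedy pathway, the transfer of the head group to diacylglycerol. CEPT1 accepts choline and ethanolamine, and CHPT1 prefers choline. Neither had a KQ peak in any list. At CHPT1 both WT peaks lay inside the gene and both recurred. The stronger (chr12:101715977-101716189) had 23 tags with 1.19 expected in the pooled list, and 13 and 11 tags in WT libraries 1 and 2. The other (chr12:101713823-101713996) had 24 tags with 1.98 expected in the pooled list, and 19 and 6 in the libraries. They lie 18420 and 16288 bp downstream of the start site. CHPT1 and PEMT were the genes of the set with a recurrent peak inside the span.

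At CEPT1 the recurrent WT peak (chr1:111190974-111191271) lay 6.02 kb beyond the gene and inside DENND2D, which encodes a DENN domain protein. It had 52 tags with 3.95 expected in the pooled list, and 40 and 16 tags in WT libraries 1 and 2. A weaker peak beside it also lay in DENND2D, and the third lay 42.5 kb from CEPT1, next to CHI3L2. Neither of these recurred.

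The Lands cycle enzymes LPCAT1 and LPCAT3 put a new fatty acid on lysophosphatidylcholine. LPCAT1 favours saturated chains and is known from lung surfactant, and LPCAT3 favours polyunsaturated chains and is a known target of the oxysterol receptor LXR. LPCAT1 had no KQ peak in any list. Its WT site (chr5:1425031-1425393) had 79 tags with 3.95 expected and ranked 505th of 25164. It lay 36.2 kb from LPCAT1, inside SLC6A3, the dopamine transporter gene. WT library 1 had 63 tags with 1.75 expected and ranked the site 33rd, and WT library 2 had 24 tags with 1.34 expected and ranked it 1275th. A second WT peak in SLC6A3 was found in WT library 2 alone.

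LPCAT3 was the gene with a site at its start. The WT peak (chr12:7018497-7019125) was 629 bp wide, where the median WT peak had 195 bp, and 99.9% of pooled WT peaks were narrower. It had 54 tags (95% interval 40.6 to 70.5) with 3.22 expected, and its summit lay 176 bp upstream of the start site. KQ library 1 had 20 tags with 2.85 expected, and KQ library 2 had no peak. WT libraries 1 and 2 had 39 and 25 tags, with 2.92 and 0.803 expected, and ranked the site 2110th and 310th. The pooled KQ peak (chr12:7018788-7019042) had 33 tags with 5.52 expected. The other 5 WT peaks of this window were nearest to ATN1, PTPN6 and C1S, and none of them recurred.

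The KQ peak at LPCAT3 did not lie on the WT summit. Its own summit was 287 bp farther upstream, 463 bp from the start site, and its nearer edge stopped 136 bp short of the WT summit. Over the 2289 WT peaks overlapped by a KQ peak, the median distance between summits was 27.0 bp, and 0.262% had a distance larger than 287 bp. The KQ peak left out the WT summit at 3.84% of these 2289 sites. Peak width limits how far apart the summits of overlapping peaks can lie. The WT peak here was 629 bp wide, where median widths were 195 bp for WT and 207 bp for KQ. These shares were not matched for width, and of the KQ libraries only library 1 called the peak. KQ library 1 alone gave the same place, 459 bp upstream of the start site, and the WT library summits lay 151 and 197 bp upstream of it. Both WT library peaks reached into the region of the KQ peak. At PEMT and CHKB the KQ peak covered the WT summit, with distances of 13 and 47 bp.

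**Figure D3:**
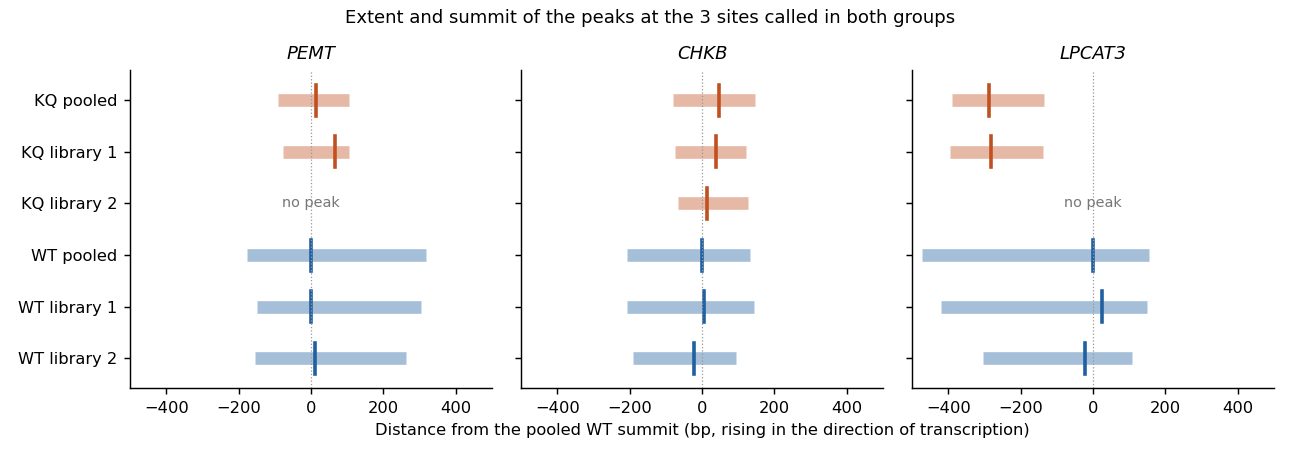
Extent (bar) and summit (vertical tick) of the peak in each list at the sites of PEMT, CHKB and LPCAT3, in bp from the pooled WT summit along the direction of transcription. At PEMT and CHKB the KQ summits lie at most 65 bp from the pooled WT summit, and at LPCAT3 the KQ summits lie 287 bp (pooled) and 283 bp (library 1) upstream of the WT summit.

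The sequence at the LPCAT3 start is shown because the WT summit falls in it. It runs from 250 bases before to 50 bases after the start, at chr12:7018427-7018726 on the minus strand, taken from RefSeq (GRCh38.p14, the assembly of hg38), and is written 5′ to 3′ along the gene. Capitals mark the best match in this window to the direct repeat bound by PPARγ with RXR, and the summit is base 75.
LPCAT3 start-site window: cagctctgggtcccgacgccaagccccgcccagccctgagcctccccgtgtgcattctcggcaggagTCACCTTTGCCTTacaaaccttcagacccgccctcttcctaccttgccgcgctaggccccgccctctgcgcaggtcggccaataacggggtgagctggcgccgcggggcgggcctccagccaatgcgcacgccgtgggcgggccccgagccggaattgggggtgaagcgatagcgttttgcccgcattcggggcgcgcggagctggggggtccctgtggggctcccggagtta

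The repeat searched, known as DR1, is AGGTCA followed by any base and AGGTCA again, on both strands, counting mismatches over its 12 fixed letters. With up to 2 mismatches, 0 of the 12 start-site windows of 8 of these genes held a match (CHKA had no entry), where 2.57% of 22156 windows of protein-coding genes and 6.42% of the 1028 windows with a WT summit did. With up to 3, a match was found in 3 of the 12, where 19.0% of all windows and 28.2% of those with a WT summit held one. The best matches of these 3 windows, read on the strand of the repeat with the letters that differ from it in lower case, were as follows.
LPCAT3: AaGgCAAAGGTgA
PEMT: AGGggACAGGTCc
CHPT1: AGGTCtGAtGTCt

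Of the 3, only the LPCAT3 window held a summit. No KQ summit lay in any of the 12 windows (0.524% of all windows held one), and a WT summit lay in 1 of them (4.64% of all windows). The match in the LPCAT3 window covers the pooled WT summit. Of the 1028 windows with a WT summit, 290 held a match with up to 3 mismatches. In 24 windows (2.33% of the 1028) the best match was within this limit and covered the summit. The summits of WT libraries 1 and 2 lay 26 bp and 20 bp from the centre of the LPCAT3 match, on opposite sides. The PEMT match lies in the window nearest to the PEMT peak, outside that peak. A match is a string of letters, and binding to it was not measured.

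The KQ peaks near these genes overlapped strong WT sites, and the whole WT list had the same trend. Over all pooled WT peaks, a KQ peak overlapped 2.74% of the lowest decile by q and 37.5% of the highest. Of the 29 WT peaks near these genes, 3 (10.3%, exact 95% interval 2.19 to 27.4) were overlapped by a KQ peak, where 9.10% of all pooled WT peaks were. All 3 belonged to the 5 sites in the highest decile of WT peaks by q. They made up 60.0% of these 5 (exact 95% interval 14.7 to 94.7), which includes the 37.5% of that whole decile. In that decile were also the sites of LPCAT1 and CEPT1, without a KQ peak. By fold the LPCAT1 site (16.2) stood above the LPCAT3 site (13) in the WT list, and the KQ peak was at LPCAT3. That order held in WT library 1 (23.3 at LPCAT1, 10.2 at LPCAT3) and not in WT library 2 (10.7 at LPCAT1, 14.4 at LPCAT3). Among the 9 recurrent WT peaks 3 had a KQ peak (33.3%, exact 95% interval 7.49 to 70.1), where 20.1% of all recurrent WT peaks did.

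**Figure D4:**
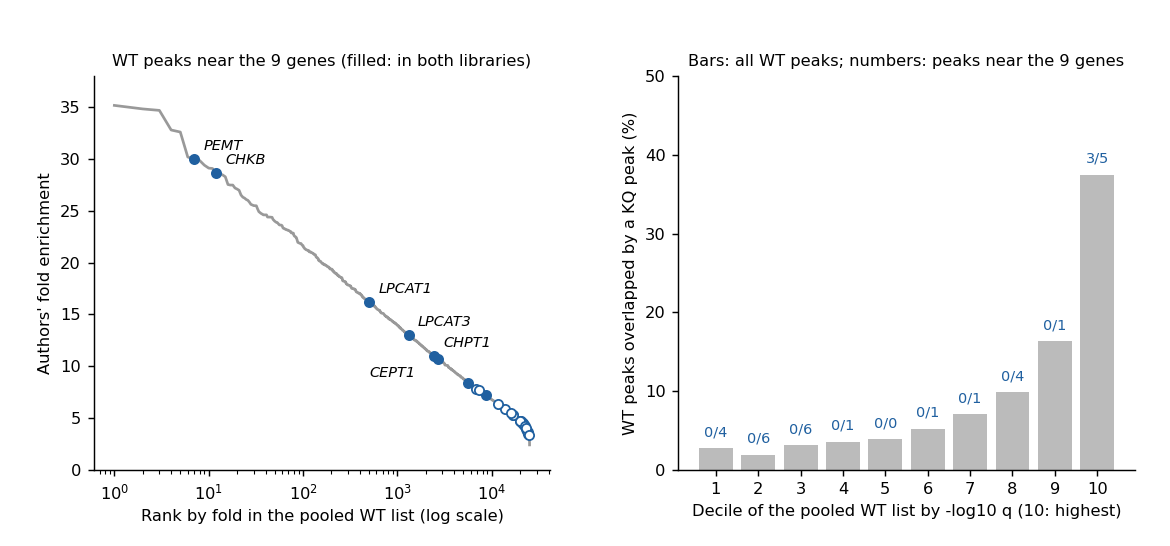
Left, fold of the WT peaks near the 9 genes (circles, filled where recurrent) on the curve of all pooled WT peaks by rank (log axis). Right, share of all pooled WT peaks overlapped by a KQ peak (bars, %) by decile of q, with the number of overlapped among the peaks near the 9 genes; 3 of the 5 in the highest decile are overlapped and 0 elsewhere.

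By position, many of these sites lay at neighbouring genes. Of the 3 KQ peaks, 1 lay inside the gene it was assigned to, 0 inside another gene and 2 between genes. Of the 29 WT peaks, 3 lay inside the gene they were assigned to, 15 inside another gene and 11 between genes. The summit was nearest to another gene for 1 of the 3 KQ peaks and 24 of the 29 WT peaks. Over all pairs of a protein-coding gene and a pooled peak within 50 kb, the peak was nearest to another gene in 47.1% for KQ and 47.5% for WT. The WT peaks of the set are not independent of each other, since 5 of them lie in ALDH3B1 alone. Inside any protein-coding gene lay 46.0% of all pooled KQ summits and 49.4% of all pooled WT summits.

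**Figure D5:**
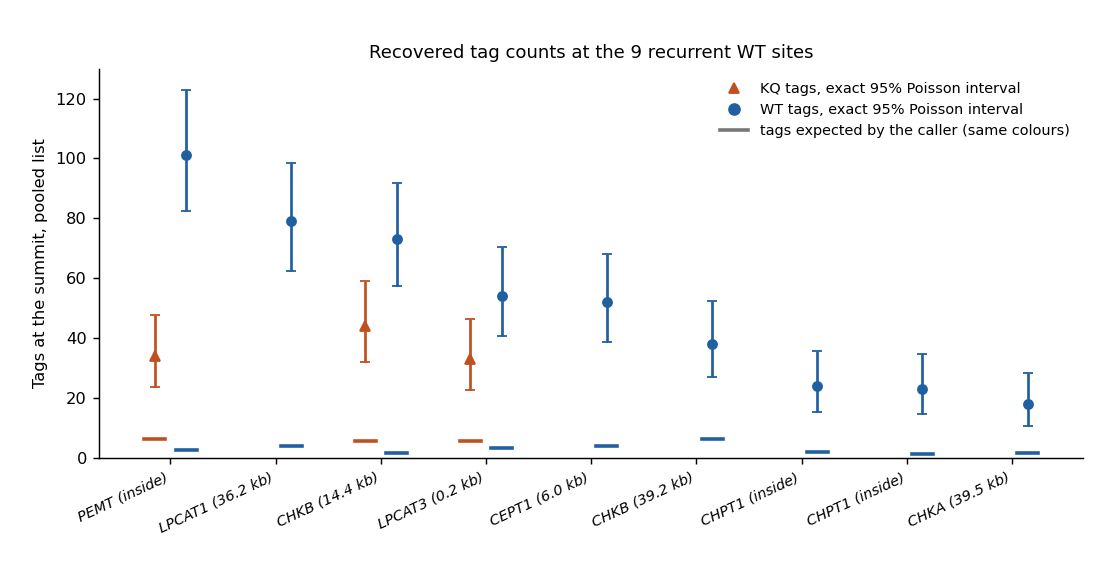
Tags at the summit of the 9 recurrent WT sites in the pooled lists (WT circles) and of the KQ peak where there is one (triangles), with exact 95% Poisson intervals; short lines give the tags expected by the caller, and tags are not scaled for depth. KQ peaks at PEMT, CHKB and LPCAT3 have 34, 44 and 33 tags, and WT sites run from 18 to 101.

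Of 31 other genes of phospholipid and choline metabolism, listed with earlier results of these data known, 1 (3.23%) had a recurrent KQ peak within 50 kb, where 2.68% of all genes had one. A recurrent WT peak lay near 9 of them (29.0%), where 37.7% of all genes had one. The KQ gene was SLC44A1, a choline transporter, with a peak inside the gene (chr9:105264433-105264753) of 37 tags and 7.55 expected. The WT peak on the same place had 34 tags with 4.35 expected and was found in WT library 1 alone. The highest WT folds were at SLC44A5 (14.8), whose peak lay inside the gene, SLC44A4 (12), where it was nearest to EHMT2, and PISD (10.7), the phosphatidylserine decarboxylase, where it lay inside the gene. SLC44A5 and SLC44A4 had 5 recurrent WT peaks each. Most of those at SLC44A4 were nearest to other genes, 3.55 to 48.5 kb from SLC44A4. At SLC44A5 the recurrent peak 27.5 kb away was nearest to another gene. None of the 4 isoforms of the steps above (PCYT1B, LPCAT2, LPCAT4 and MBOAT2) had a recurrent peak in either group.

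The genes most like PEMT were MACROD2, ABCC3 and ANKRD40, of all protein-coding genes over 100 kb from the set. Likeness was the mean difference, over the 4 libraries, in the percentile of the highest-fold peak within 50 kb, and it was 0.421 points for MACROD2 and 0.821 points for ABCC3 and ANKRD40, whose percentiles were identical. PEMT stood at 31.0% in KQ library 1, had no peak in KQ library 2, and stood at 98.9% and 99.9% in the WT libraries. MACROD2 stood at 30.2%, no peak, 98.7% and 99.1% in the same order of libraries.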

How the data were processed

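The submitters' processing notes name Bowtie2 (version 2), MACS2, HOMER, bedtools, deepTools and the hg38 build, without saying which settings the caller had or whether input was its control. The authors deposited 1 list for each library and 1 for the pooled libraries of each group. The deposited lists give the fold enrichment, a ratio to the caller's background, and −log10 of p and q for each peak, with a lowest −log10 q of 1.30.

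Peaks on chromosomes 1 to 22 and X were matched when they shared 1 bp or more, using gene spans and start-site windows from RefSeq (GRCh38.p14), in Python 3.11.15 with pandas 2.3.3 and scipy 1.17.1. Tags and expected tags at a summit were solved from fold = (tags + 1)/(expected + 1) and the Poisson p-value, the form MACS2 writes. A whole tag count matched −log10 p within a relative error of 1e-04 for 100.0% of the peaks in each list. Intervals cover counting error only. Overlap, window, nearest-gene and tag steps were tested on simulated data.

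The genes and lists were chosen with earlier results of these data known. All 9 genes are named, as are genes that hold or lie nearest to their peaks, the 3 genes most like PEMT, and listed metabolic genes with a recurrent KQ peak or one of the 3 highest WT folds. No genome was used here, so the planned motif search in peaks was replaced by start-site windows.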

Additional observations from a re-analysis of the deposited data

How the results depend on the processing

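No paired analysis was possible because the results are counts and shares that come from no test. With a 5 kb window, genes with a recurrent peak numbered 0 for KQ and 3 for WT, WT peaks numbered 5, and 40.0% of these had a KQ peak; the peaks in KQ library 2, WT library 1 and WT library 2 numbered 0, 6 and 5. With the nearest gene only, these values were 0, 3, 5 and 40.0%, and 0, 5 and 6; the shares of all protein-coding genes with a recurrent peak were then 1.27% for KQ and 20.4% for WT, and 1.09% and 17.5% with the 5 kb window. Counting all pooled peaks gave 3 genes for KQ, where 16.4% of all protein-coding genes had a peak. Counting recurrent peaks only gave 1 KQ peak and 9 WT peaks. A −log10 q of at least 5 left 19 WT peaks, and 12 in WT library 2. With the WT list shortened to the KQ length by q, 5 WT peaks were left, of which 60.0% had a KQ peak. Among all pooled WT peaks of the highest decile by q, 37.5% had one. Shares over all WT peaks were not computed for the shortened list, the 5 kb window or the nearest-gene setting. Requiring support from the remaining library only, genes with a peak ranged from 1 to 3 for KQ (3 without KQ library 2). For WT they ranged from 7 to 8. The shares of all protein-coding genes called by this rule were not computed. Peaks then ranged from 1 to 3 for KQ and from 14 to 17 for WT. The share of WT peaks with a KQ peak ranged from 3.45% (without KQ library 1) to 21.4% (without WT library 2). The 100 kb window and 50% overlap moved no count by over 1.5 times. The highest fold of CHKB in the WT list was 4.65 in the 5 kb window, where the strong site is left out. The motif share was 0.316% at 1 mismatch and 19.0% at 3. The search in start-site windows and the other settings for the peaks per library were chosen after seeing the data. The motif search around summits was not run.

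The 5 WT peaks that 1 library alone called and the pooled list did not have 4 to 12 tags each. A library without a peak is not shown to lack binding.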

Other observations

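Among the peaks called in single libraries, 0 KQ peaks and 5 WT peaks within 50 kb of the 9 genes overlapped no pooled peak of their group. WT library 2 had one inside PEMT with 5 tags and 0.224 expected, one 15.7 kb from CEPT1 with 5 tags and 0.258 expected, and the PCYT1A peak given above. WT library 1 had one inside LPCAT3 with 12 tags and 0.912 expected, and the PCYT2 peak given above.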
